A study of Arabidopsis thaliana with 6 samples.

Results

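Succinate dehydrogenase, or respiratory complex II, was followed through its 8 genes for the 4 core subunits in male meiocytes of Arabidopsis thaliana. The genes were taken by locus identifier: SDH1-1 (AT5G66760), SDH1-2 (AT2G18450), SDH2-1 (AT3G27380), SDH2-2 (AT5G40650), SDH2-3 (AT5G65165), SDH3-1 (AT5G09600), SDH3-2 (AT4G32210) and SDH4 (AT2G46505). They are 8 of the 27655 genes counted in each library. They were selected on their counts in these 6 libraries, with the contrast between the genotypes already known, so the differences of these 8 genes are described here with their errors and carry no test.

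Polyadenylated RNA was sequenced from 3 libraries of Ler (Landsberg erecta), a laboratory strain, and from 3 libraries of knu-2, a mutant allele of the zinc finger gene KNUCKLES (KNU). Meiocytes, the cells that enter meiosis and give rise to pollen, were released by squeezing anthers of stages 4 to 7, and no sorting step is named. The genetic background of knu-2, the age of the plants and the number of plants behind each library are not stated by the labels. The replicates are labelled as biological, but nothing says that they came from separately grown plants, so adjusted p-values reflect only how much these collections varied.

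Complex II oxidises succinate to fumarate in the tricarboxylic acid (TCA) cycle and passes the electrons to ubiquinone in the inner mitochondrial membrane. SDH1 is the flavoprotein that binds succinate, SDH2 carries the iron-sulfur clusters, and SDH3 and SDH4 anchor the complex in the membrane, where ubiquinone is reduced. Arabidopsis keeps more than one gene for most of these subunits, and mitochondria are known to matter for pollen development, in which defects often lead to male sterility.

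How far reads can be told apart between paralogs depends on their sequences, so the start of each coding sequence is shown for the 3 pairs on which the shares rest. The letters come from the RefSeq annotation of the TAIR10.1 assembly, a Columbia genome, whereas the Ler libraries come from another strain. Capitals mark bases that differ from the aligned paralog or face a gap in it, and each sequence reads 5′ to 3′ from the start codon. The SDH1 pair lies at chr5:26653776-26653865 on the plus strand (SDH1-1) and chr2:8000712-8000801 on the minus strand (SDH1-2). The SDH2 pair lies at chr3:10132584-10132673 on the minus strand (SDH2-1) and chr5:16281462-16281551 on the plus strand (SDH2-2). The SDH3 pair lies at chr5:2979220-2979294 on the plus strand (SDH3-1) and chr4:15557967-15558041 on the minus strand (SDH3-2).
SDH1-1: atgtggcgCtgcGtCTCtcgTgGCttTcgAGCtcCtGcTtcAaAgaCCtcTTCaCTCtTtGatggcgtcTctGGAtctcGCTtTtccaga
SDH1-2: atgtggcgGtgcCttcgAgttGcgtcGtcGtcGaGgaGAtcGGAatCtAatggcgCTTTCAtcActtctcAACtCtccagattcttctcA
SDH2-1: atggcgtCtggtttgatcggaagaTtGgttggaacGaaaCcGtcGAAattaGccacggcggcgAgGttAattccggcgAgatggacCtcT
SDH2-2: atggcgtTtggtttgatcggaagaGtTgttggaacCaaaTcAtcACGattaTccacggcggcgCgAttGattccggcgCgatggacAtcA
SDH3-1: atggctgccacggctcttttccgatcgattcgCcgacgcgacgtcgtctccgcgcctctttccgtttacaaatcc
SDH3-2: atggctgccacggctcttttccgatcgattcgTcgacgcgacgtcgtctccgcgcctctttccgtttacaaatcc

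The SDH1 paralogs were the easiest pair to separate and the SDH3 paralogs the hardest. Over the aligned coding sequence, SDH1-1 and SDH1-2 were identical at 80.74% of positions, with no identical run over 35 bases. Neither transcript shared an exact 50-base window with any other annotated transcript. SDH2-1 and SDH2-2 were identical at 87.22% of coding positions, with a longest identical run of 49 bases. SDH2-3 stood further off, at 65.61% identity with SDH2-1 and 64.43% with SDH2-2. SDH3-1 and SDH3-2 differed at 1 of 642 coding positions, the base in capitals in the lines for that pair. Of the 50-base windows, 83.57% of those in SDH3-1 and 95.26% of those in SDH3-2 occurred in another transcript as well. No source used here says how the authors assigned reads that match more than one gene, so the split of the SDH3 reads between the paralogs is uncertain. If such reads were left out, the levels of both genes and their sum would be too low.

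Exons of SDH2-1, SDH2-2 and SDH3-1 overlap those of a neighbour in TAIR10.1. SDH2-1 (chromosome 3, 10129610 to 10132882, minus strand) shares 328 bp, or 12.39% of its length, with AT3G27360 on the same strand. AT3G27360, annotated as a histone, averaged 75.8 ± 10.6 CPM (counts per 1000000 counts of the library, scaled as given with the levels) over the 3 Ler libraries and 42.0 ± 12.9 CPM over the 3 of knu-2 (mean ± SD). SDH2-2 (chromosome 5, 16281394 to 16283527, plus strand) shares 382 bp, or 19.11% of its length, with AT5G40660 on the opposite strand, which stood at 154 ± 13.3 CPM and 103 ± 8.36 CPM. SDH3-1 (chromosome 5, 2978825 to 2981096, plus strand) shares 232 bp, or 13.91%, with the Pumilio gene PUM21 on the same strand. The other 5 models were SDH1-1 (chromosome 5, 26653607 to 26657696, plus strand, 15 exons), SDH1-2 (chromosome 2, 7997344 to 8000825, minus strand, 15 exons), SDH2-3 (chromosome 5, 26034422 to 26036057, minus strand, 5 exons), SDH3-2 (chromosome 4, 15556397 to 15558167, minus strand, 4 exons) and SDH4 (chromosome 2, 19089486 to 19090776, minus strand, 1 exon). Whether the overlaps moved reads between neighbours was not tested.

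The libraries held 18070435 to 27995200 counts in genes. KNU itself averaged 76.8 ± 9.67 CPM among Ler libraries but 8.62 ± 4.68 CPM among those of knu-2, a fall that passed the test (log2 fold change -3.16, SE 0.36; edgeR quasi-likelihood test with Benjamini-Hochberg adjustment, adjusted p = 0.000128). Of 18422 genes tested, 8856 passed an adjusted p of 0.05, or 48.1%, with 24.4% lower and 23.6% higher in knu-2. Of 18 meiocyte markers, 16 fell and 1 rose in knu-2, and their summed level was 5730 to 6920 CPM in Ler against 1186 to 2162 CPM in knu-2. Of 14 markers of the tapetum, the nurse layer of the anther, 11 were tested, of which 9 rose and 1 fell. Their summed level was 394 to 538 CPM in Ler and 1886 to 2649 CPM in knu-2. The markers that were not tested, MS1, CYP703A2 and MS2, were at 0 counts in all 6 libraries. These marker levels moved with genotype together with every difference given for the SDH genes, and their part in those differences was not tested. In bulk RNA, fewer cells of a type and less RNA per cell cannot be told apart.

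In Ler, SDH1-1 was the most abundant of the 8 transcripts per length, and SDH1-2, SDH3-1 and SDH2-3 were the lowest. Levels of different genes are compared as CPM, scaled between libraries by the trimmed mean of M-values (TMM), divided by the gene's length in kb. On that scale SDH1-1 averaged 370 ± 46.1, SDH3-2 124 ± 8.85, SDH2-2 104 ± 14.9, SDH2-1 96.4 ± 6.56 and SDH4 81.3 ± 2.87 CPM per kb (SD, n = 3). SDH1-2 followed at 10.7 ± 2.91 and SDH3-1 at 2.33 ± 1.18 CPM per kb. SDH2-2 overlapped both of its neighbours in this order, SDH3-2 and SDH2-1, while the other neighbouring genes did not overlap between libraries.

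In knu-2 the leading genes lay closer together. SDH1-1 averaged 136 ± 26.0, SDH3-2 94.6 ± 18.3 and SDH4 86.7 ± 18.9 CPM per kb (SD, n = 3), and neighbours among these 3 overlapped. SDH2-2 at 53.4 ± 6.63 and SDH2-1 at 40.5 ± 5.57 CPM per kb lay below SDH4 in every library and did not overlap each other. Before division by length these SDH2 genes did overlap, at 107 ± 13.3 CPM (SDH2-2) and 107 ± 14.8 CPM (SDH2-1). Their order in knu-2 thus rests on the gene lengths used. SDH3-1 at 1.12 ± 0.592 CPM per kb now stood above SDH1-2, which averaged 0.300 ± 0.267 CPM per kb, without overlap on that scale.

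**Figure D1:**
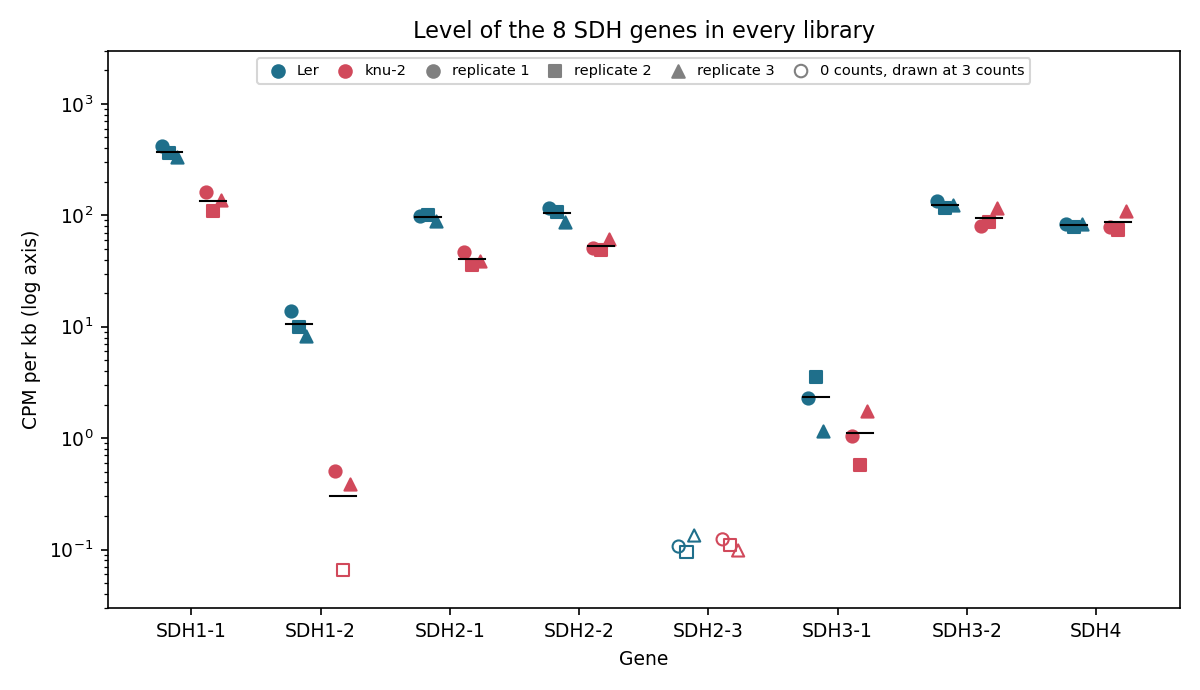
Level of the 8 SDH genes in every library, as TMM-scaled CPM per kb of gene length on a log axis; points are libraries, horizontal lines are group means, and open symbols are libraries with 0 counts drawn at the level of 3 counts. SDH1-2 shows the widest gap between Ler and knu-2, SDH4 the narrowest, and SDH2-3 has open symbols only.

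Of the 8 genes, 7 had enough counts to be fitted. The values of the genotypes did not overlap for 5 of these 7 (SDH1-1, SDH1-2, SDH2-1, SDH2-2 and SDH3-2), all lower in knu-2. Of all tested genes, 59.1% did not overlap, 29.3% with knu-2 lower and 29.8% with knu-2 higher. The genes were chosen with this contrast in view, so nothing is read from these counts. The median log2 fold change of the 7 genes was -1.05, against 0.10 for all tested genes. The genes ranged from -5.15 for SDH1-2 to 0.09 for SDH4.

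SDH1-1, the main gene for the flavoprotein, was lower in knu-2. It stood at 421, 359 and 330 CPM per kb in the 3 Ler libraries and at 161, 109 and 137 CPM per kb in the 3 knu-2 libraries. All 3 mutant values lay under the lowest Ler value. The log2 fold change was -1.45 (SE 0.19), or 2.72-fold lower, from counts between 6081 and 24368 per library.

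SDH1-2, the second flavoprotein gene, was close to lost in knu-2. Its counts were 659, 524 and 310 in Ler and 21, 0 and 20 in knu-2. These correspond to 29.0, 20.7 and 17.1 CPM in Ler and to 1.07, 0 and 0.810 CPM in knu-2. The 2 knu-2 libraries with reads lay far under the lowest Ler library, and in the replicate 2 library of knu-2 no read was seen where 3 counts would be 0.137 CPM. The log2 fold change was -5.15 (SE 0.85), or 35.4-fold lower, the largest among the 8 genes. That fitted size depends on how the library at 0 is treated, being -4.57 (SE 0.38) without it and -6.32 (SE 1.41) with limma-voom.

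Within the flavoprotein subunit, SDH1-2 was a minor part in Ler and smaller still in knu-2. Per length, it made up 3.19%, 2.68% and 2.42% of the SDH1 transcripts in the Ler libraries, a mean of 2.77 ± 0.392% (SD, n = 3). In the knu-2 libraries it made up 0.318%, 0% and 0.281%, a mean of 0.200 ± 0.174%. The groups did not overlap, so SDH1-2 was reduced more than SDH1-1 in the same libraries, whatever scaling is used between libraries. As a share of counts, the exact 95% binomial interval in the lowest Ler library was 1.78% to 2.23%, and in the highest knu-2 library 0.161% to 0.398%. In the knu-2 library with 0 of 6081 SDH1 counts, the floor of 3 counts is 0.0493%. These intervals and floors cover counting error only. Without that library the knu-2 mean was 0.299%.

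**Figure D2:**
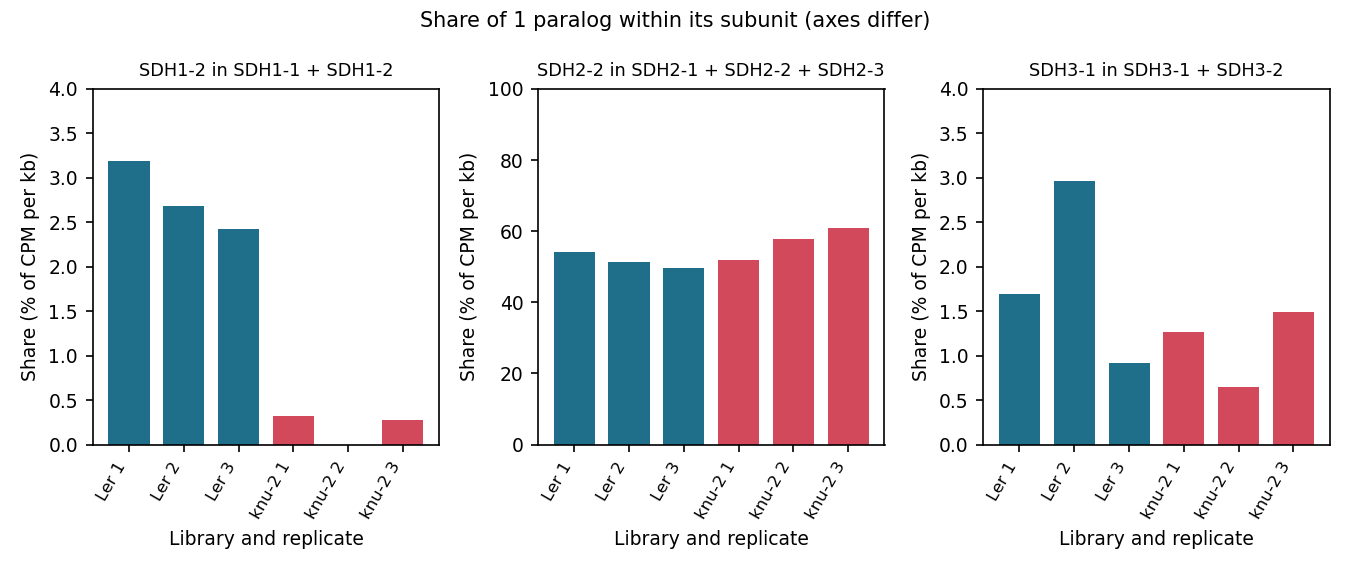
Share of SDH1-2, SDH2-2 and SDH3-1 within the summed CPM per kb of their subunit, as a percentage, with 1 bar per library; Ler bars are blue, knu-2 bars are red, and the vertical axes differ. SDH1-2 makes up 2.42% or more in each Ler library and 0.318% or less in each knu-2 library, while the shares of SDH2-2 and SDH3-1 overlap between the genotypes.

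Both iron-sulfur genes that were detected, SDH2-1 and SDH2-2, were lower in knu-2. SDH2-1 stood at 262, 268 and 236 CPM in Ler and at 123, 94.3 and 104 CPM in knu-2. The groups did not overlap, and the log2 fold change was -1.25 (SE 0.16). SDH2-2 stood at 234, 213 and 176 CPM in Ler and at 101, 97.5 and 122 CPM in knu-2. These groups did not overlap either, and the log2 fold change was -0.96 (SE 0.17).

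Unlike the flavoprotein pair, the iron-sulfur pair kept a near-even division of transcripts in both genotypes. SDH2-2 made up 54.2%, 51.3% and 49.7% of the SDH2 transcripts per length in Ler and 52.0%, 57.8% and 60.9% in knu-2. The means were 51.7 ± 2.28% and 56.9 ± 4.51% (SD, n = 3), and the groups overlapped. As a share of counts, without division by length, SDH2-2 made up 44.7 ± 2.26% in Ler and 49.9 ± 4.58% in knu-2. Which of the 2 genes leads therefore depends on the gene lengths used. SDH2-3, an iron-sulfur gene known from seeds, had 0 counts in all 6 libraries, which with the floor of 3 counts allows between 0.0246% and 0.0714% of the SDH2 counts, depending on the library. Of the 10 seed markers 2 passed the filter on low counts, and the summed level of all 10 was 1.45 to 3.97 CPM in Ler and 5.89 to 9.78 CPM in knu-2. The seed regulators ABI3 and FUS3 and the seed proteins EM1 and EM6 were at 0 counts in all 6 libraries.

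The membrane anchor genes SDH3-2 and SDH4 stood closer between the genotypes than the detected SDH1 and SDH2 genes did. SDH3-2 stood at 147, 127 and 137 CPM in Ler and at 89.2, 96.6 and 127.3 CPM in knu-2. The knu-2 library of replicate 3 lay only just under the lowest Ler library, and the log2 fold change was -0.40 (SE 0.18). SDH3-1 was barely detected, with 87, 149 and 35 counts in Ler and 34, 21 and 72 in knu-2. Its groups overlapped, and its log2 fold change of -1.05 had an SE of 0.63. The near identity of the pair limits both values, and the SDH3 sum and its ratios depend on how shared reads were counted.

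SDH4, a gene with a single exon and no paralog in the set, showed no shift beyond its spread. It stood at 107, 101 and 107 CPM in Ler and at 101, 94.4 and 140 CPM in knu-2. The knu-2 libraries lay on both sides of the Ler libraries, and the log2 fold change was 0.09 (SE 0.18). With library totals alone and no TMM scaling the value was 0.40 for SDH4 and -0.08 for SDH3-2, but that setting also moved the median of all tested genes from 0.10 to 0.42, a shift of 0.32. Relative to that median, SDH4 stood close to the other tested genes in both settings.

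Summed by subunit, the 2 catalytic subunits were lower in knu-2 and the anchors differed less. The SDH1 genes together stood at 434, 369 and 339 CPM per kb in Ler and at 161, 109 and 138 CPM per kb in knu-2, 2.80-fold lower on the means. The SDH2 genes stood at 216, 208 and 177 CPM per kb in Ler and at 97.0, 84.4 and 100.2 CPM per kb in knu-2, 2.13-fold lower. The SDH3 genes stood at 136, 119 and 126 CPM per kb in Ler and at 81.9, 88.1 and 117 CPM per kb in knu-2, 1.32-fold lower. The groups did not overlap for SDH1, SDH2 or SDH3, although for SDH3 the nearest libraries were 117 and 119 CPM per kb.

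Ratios between subunits within a library do not depend on the scaling between libraries. SDH1 to SDH4 was 5.23, 4.73 and 4.08 in Ler and 2.05, 1.49 and 1.27 in knu-2. SDH2 to SDH4 averaged 2.47 ± 0.292 in Ler and 1.10 ± 0.160 in knu-2 (mean ± SD of 3 libraries). SDH3 to SDH4 averaged 1.56 ± 0.0646 and 1.11 ± 0.0850, and SDH1 to SDH2 averaged 1.90 ± 0.118 and 1.44 ± 0.195. Each of these ratios was lower in every knu-2 library than in every Ler library. The 4 subunits thus stood nearer to each other in transcript level in knu-2 than in Ler.

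**Figure D3:**
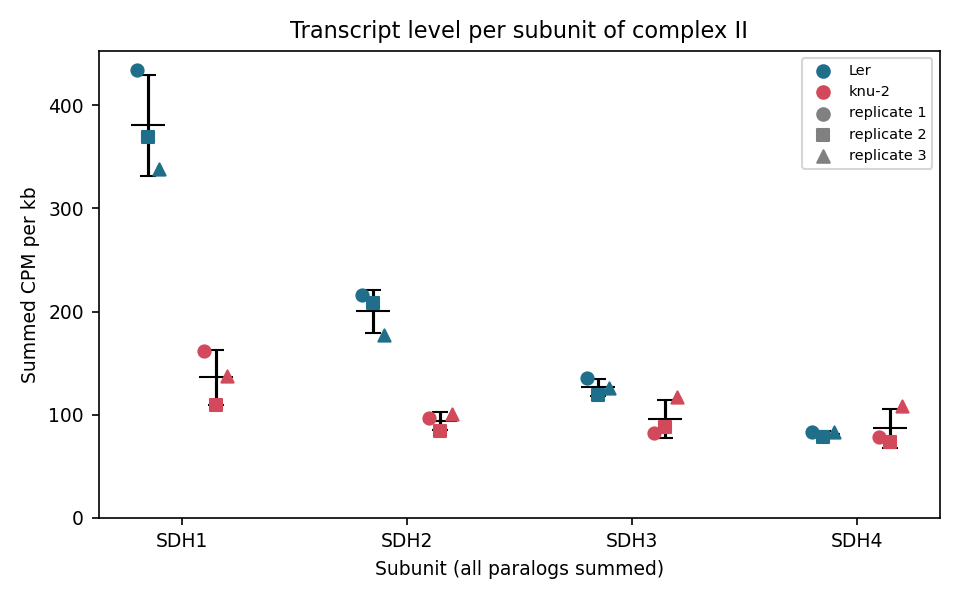
Summed level of each complex II subunit in CPM per kb for Ler and knu-2; points are libraries, wide horizontal lines are means and error bars are the SD over 3 libraries. SDH1 and SDH2 are lower in every knu-2 library, SDH3 groups come close to each other, and SDH4 groups overlap.

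A further list held 8 other genes of complex II and its assembly, drawn up like all lists here with results of these data known, and all 8 were tested. Of these, 3 fell, 2 rose and 3 did not pass, or 62.5% called against 48.1% of all tested genes. Their median log2 fold change was -0.23. The plant-specific subunit genes SDH5, SDH6 and SDH7-1 fell with SDH1 and SDH2. SDH5 went from 425 ± 42.7 to 250.0 ± 24.1 CPM (log2 fold change -0.76, SE 0.16; edgeR adjusted p = 0.00236). SDH6 went from 304 ± 14.9 to 174 ± 26.0 CPM (-0.80, SE 0.17; edgeR adjusted p = 0.00201). SDH7-1 went from 87.0 ± 6.57 to 48.3 ± 3.88 CPM (-0.85, SE 0.16; edgeR adjusted p = 0.00105). Its paralog SDH7-2 stood at 59.7 ± 6.63 and 55.3 ± 5.74 CPM and did not pass (edgeR adjusted p = 0.626), with a log2 fold change of -0.11 that turned to 0.22 without TMM scaling. SDH8 stood at 124 ± 36.1 and 155 ± 68.5 CPM and did not pass either (edgeR adjusted p = 0.522).

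The assembly factors that act on the flavoprotein rose while the flavoprotein genes were lower. SDHAF2, which helps to attach the flavin to SDH1, stood at 25.1, 24.2 and 24.1 CPM in Ler and at 71.6, 79.4 and 72.3 CPM in knu-2. It was higher in every knu-2 library, with a log2 fold change of 1.60 (SE 0.16; edgeR adjusted p = 2.18e-05). SDHAF4, known in yeast and human cells to bind the flavinylated subunit, stood at 14.2, 16.2 and 14.4 CPM in Ler and at 44.1, 55.0 and 71.7 CPM in knu-2. It also rose, by 1.93 (SE 0.21; edgeR adjusted p = 3.98e-05) on the log2 scale. An annotated antisense gene, AT5G67488, covers 89.21% of the 50-base windows of SDHAF4, and without a stated strand setting reads of the pair cannot be separated. SDHAF1, known in yeast and human cells to act on the iron-sulfur subunit, stood at 15.3 ± 3.08 and 12.0 ± 3.55 CPM and did not pass (edgeR adjusted p = 0.355).

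**Figure D4:**
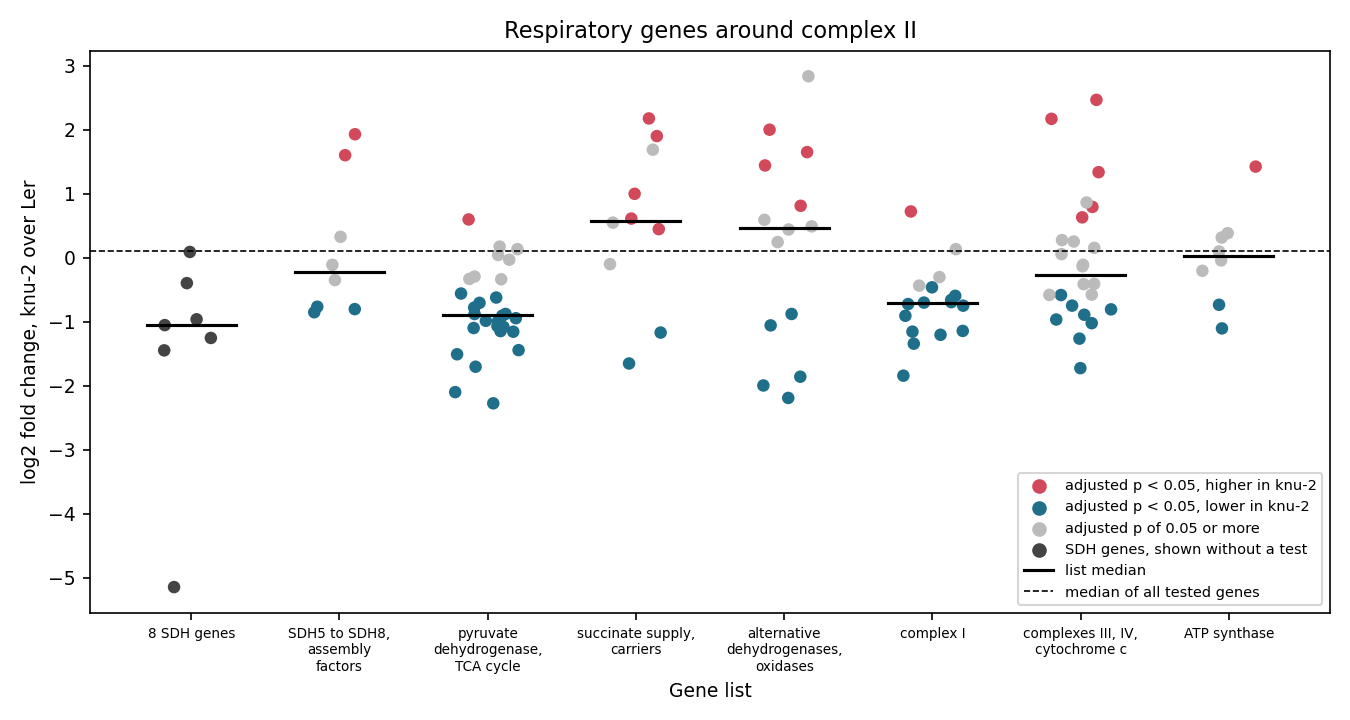
log2 fold change of knu-2 over Ler for the SDH genes and the other respiratory lists; each point is a tested gene, short lines are list medians and the dashed line is the median of all tested genes, 0.10. Most of the TCA cycle and complex I points are blue (lower), and the SDH genes, shown in dark grey without a test, reach from -5.15 to 0.09.

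The enzymes on either side of complex II in the TCA cycle were mostly lower as well. Of 30 genes of pyruvate dehydrogenase, NAD-malic enzyme and the TCA cycle outside complex II, 28 were tested, of which 20 fell, 1 rose and 7 did not pass. That is 75% called, against 48.1% of all tested genes. Their median was -0.89 on the log2 scale, and their summed level was 10016 to 11371 CPM in Ler against 4497 to 6284 CPM in knu-2. FUM1, the mitochondrial fumarase that takes the product of complex II, fell (log2 fold change -0.90, SE 0.16; edgeR adjusted p = 0.000919). Upstream of succinate, the succinyl-CoA ligase gene SCOAL-A2 fell by 1.08 (SE 0.17; edgeR adjusted p = 0.000371), while SCOAL-A1 stood at -0.29 (SE 0.22) and did not pass (edgeR adjusted p = 0.296). FUM1 and the SCOAL genes were chosen for their place next to succinate after their values had been seen. By the naming rule, PDC-E2-3 (pyruvate dehydrogenase) fell by 2.10 (edgeR adjusted p = 1.55e-05) and CSY4 (citrate synthase) by 1.70 (edgeR adjusted p = 5.09e-05). The gene that rose was OGDH-E2-1 of 2-oxoglutarate dehydrogenase, by 0.60 (SE 0.16; edgeR adjusted p = 0.00901), a call lost without Ler replicate 2 (adjusted p = 0.0535) or Ler replicate 3 (adjusted p = 0.0679).

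Genes that supply or move succinate by other routes were divided. Of 15 such genes, 10 were tested, of which 5 rose, 2 fell and 3 did not pass, or 70% called against 48.1% of all tested genes (23.6% higher, 24.4% lower). Their log2 fold changes had a median of 0.58. The summed level of the 15 genes, which follows the abundant ones, was nevertheless lower in knu-2. It was 950 to 1045 CPM in Ler and 610 to 702 CPM in knu-2. The dicarboxylate carrier gene DIC1 rose by 1.90 (SE 0.18; edgeR adjusted p = 1.70e-05). SSADH, the succinic semialdehyde dehydrogenase that ends the GABA shunt in succinate, fell from 232 ± 17.2 to 73.8 ± 17.4 CPM (log2 fold change -1.65; edgeR adjusted p = 5.82e-05). The carrier gene DTC fell by 1.17 (edgeR adjusted p = 0.000205). The rises of DIC2 (0.61; edgeR adjusted p = 0.0227) and of the glutamate decarboxylase gene GAD2 (1.00; edgeR adjusted p = 0.0185) were lost when single libraries were left out, with adjusted p up to 0.0777 for DIC2 and 0.0904 for GAD2. The number of called genes was 3 without Ler replicate 1, Ler replicate 2 or knu-2 replicate 3, against 7 with all libraries.

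Other enzymes that pass electrons to or from ubiquinone, directly or through another protein, were likewise divided. The uncoupling proteins were kept on the same list. Of 19 genes, 14 were tested, of which 5 fell, 4 rose and 5 did not pass, or 64.3% called against 48.1% of all tested genes. Their log2 fold changes had a median of 0.47. The summed level of the 19 genes, which follows the abundant ones, was nevertheless lower in knu-2. It was 1504 to 1569 CPM in Ler and 595 to 795 CPM in knu-2. NDA2, an alternative NADH dehydrogenase of the inner membrane, fell by 2.19 (SE 0.22; edgeR adjusted p = 2.47e-05). The uncoupling protein genes UCP1 and UCP2 fell by 2.00 (edgeR adjusted p = 2.08e-05) and 1.86 (edgeR adjusted p = 1.16e-05), although 26.6% of the windows of UCP2 are shared with an antisense gene. IVD, isovaleryl-CoA dehydrogenase, rose by 1.65 (SE 0.26; edgeR adjusted p = 0.000336). ETFQO rose by 0.81 (edgeR adjusted p = 0.0110), a call lost without Ler replicate 1 (adjusted p = 0.0518). D2HGDH rose by 1.44 (edgeR adjusted p = 0.0134), a call lost without Ler replicate 3 (adjusted p = 0.0529) or knu-2 replicate 1 (adjusted p = 0.0550). The number that rose was 2 without Ler replicate 1, Ler replicate 3 or knu-2 replicate 1.

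Of 50 nuclear genes of the other respiratory complexes, 49 were tested, of which 23 fell, 7 rose and 19 did not pass, or 61.2% called against 48.1% of all tested genes. Complex I leaned lower, with 13 genes that fell, 1 that rose and 3 that did not pass (82.4% called), and a median log2 fold change of -0.70. Its carbonic anhydrase genes CA1 and CAL2 fell by 1.84 (edgeR adjusted p = 1.21e-05) and 1.34 (edgeR adjusted p = 0.000126), and CI51 rose by 0.72 (edgeR adjusted p = 0.00368). Of complexes III and IV with cytochrome c, 8 genes fell, 5 rose and 11 did not pass (54.2% called), with a median of -0.27. CYTC-2, a cytochrome c gene, fell by 1.72 (edgeR adjusted p = 1.86e-05), and UCR1-1, for a Rieske protein, rose by 2.17 (edgeR adjusted p = 1.10e-05), with 15.77% of its windows shared with its paralog. Of 8 ATP synthase genes, 2 fell, 1 rose and 5 did not pass (37.5% called, under the share of all tested genes), with a median of 0.03.

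The difference between paralogs was set beside that of other pairs on these lists. The log2 fold change of SDH1-2 minus that of SDH1-1 was -3.70, and that of SDH3-2 minus that of SDH3-1 was 0.66. A pair meant tested genes of a list whose names differed only in the final number, with no further gene so named. SDH2, with more genes, was thus left out, and family members under other names were not counted. The 20 pairs from the lists outside SDH1 and SDH3 differed by 0.0037 to 4.19 in size, with a median of 0.76. The pair at 4.19, wider apart than SDH1 by the fitted values, was NDA1 and NDA2. NDA1 was scarce, with 14 to 90 counts per library, and its rise of 2.00 carried an SE of 0.72. The fall of SDH1-2 carried an SE of 0.85, so which pair was wider apart is uncertain. The comparison is a description over pairs, and the SDH1 pair was chosen with its difference known.

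Among 14203 genes with a mean of 5 CPM or more, 5 had a profile over the 6 libraries most like that of SDH1-2, by the root mean square difference of centred log2 CPM. They were AT1G09740 (0.325), VIM4 (0.325), AT1G61260 (0.391), the receptor-like kinase gene AT5G61350 (0.462) and AT2G43450 (0.641). AT1G09740 stood at 18.1, 12.6 and 13.5 CPM in Ler and at 0.510, 0 and 0.405 CPM in knu-2. All of these except VIM4 were at 0 counts in the knu-2 library in which SDH1-2 was at 0. VIM4, which the annotation describes as nearly identical to a paralog, stood at 0.0456 CPM there. The genes were picked for likeness over all 6 libraries, that one included, so their low level there follows from the choice. Only their Ler levels carried them past the filter at 5 CPM. These likenesses rest on 6 libraries in 2 groups and describe only the shared low level in knu-2.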

How the data were processed

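The authors deposited 1 file per library with whole-number counts per gene, not normalized as judged from the values, and a gene length in bp. That length equalled the merged exon length in TAIR10.1 for 99.36% of the 27445 genes found there, out of 27655 counted. Polyadenylated RNA was fragmented and copied with random hexamers, per the labels' protocols; no strand-marking step is named, and for the aligner, counter, genome build and strandedness the sources used here give nothing. All 6 libraries (18070435 to 27995200 counts) were fitted together with genotype as the only term in edgeR 4.0.16 (filterByExpr, TMM, glmQLFit with robust estimation, glmQLFTest; R 4.3.3), and Benjamini-Hochberg adjusted p-values under 0.05 over all 18422 tested genes were called. The 9233 genes left out held 0.0769% of counts. SEs were computed from the F statistic. The procedure was checked on simulated counts, in which it recovered most of the larger and few of the smaller changes. The simulation gave every gene the same dispersion, unlike the fit to the data, so its recovery does not measure that of the fit. A gene that did not pass may still differ. Shared windows were exact 50-base matches among annotated transcripts, and shares have exact Clopper-Pearson intervals.

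The SDH genes and the gene lists were chosen with earlier results of these data known; 2 list entries were dropped because the annotation gives their locus another name. Named were all SDH and accessory genes and, in each other list, up to 3 called genes per direction with the smallest p, of which the text gives a selection; 1 gene named by this rule is not reported here. Alternatives were DESeq2 size factors, no scaling, no filter, a filter at 5 CPM, DESeq2 1.42.0, limma-voom (limma 3.58.1), a replicate block, shares of raw or summed counts, and leaving out each library.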

Additional observations from a re-analysis of the deposited data

How the results depend on the processing

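The number of genes called lay between 7284 and 9648 over all settings, against 8856. Library totals without TMM scaling gave 9648 calls, 63.7% of them higher in knu-2 against 49.2% with TMM, and moved the number of genes that rose from 1 to 3 in the TCA list and from 7 to 14 in the respiratory complexes; SDH7-2 reversed to 0.22. SDH1-2 had a log2 fold change of -6.32 to -4.86 over the alternatives with all libraries, and of -5.72 to -4.57 when each library was left out in turn. Its share of SDH1 was 2.28% in Ler by raw counts, 2.55% to 2.94% in Ler and 0.141% to 0.299% in knu-2 without single libraries. DESeq2 gave 3 succinate supply genes that rose, against 5. Without single libraries, the calls numbered 0 to 1 for TCA genes that rose (0 without Ler replicate 2 or 3), 3 to 6 for succinate supply genes (1 to 4 that rose) and 2 to 5 for electron entry genes that rose. DIC2 lost its call also with DESeq2 (adjusted p = 0.0513). The causes were not tested. Deviations of same-numbered libraries correlated at -0.12, 0.10 and 0.052, and those of differently numbered libraries at -0.205 to 0.130. No pairing by number was seen, but 3 libraries per group are too few to exclude it. A replicate block gave 8846 calls and -5.36 for SDH1-2. Depth limits SDH1-2 in knu-2 (41 counts over 3 libraries) and SDH2-3 (0 counts).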
